A study of Mus musculus with 74 samples.

Results

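The ADAM proteins (a disintegrin and metalloproteinase) were described here across primary tumors (PTs) and lung metastases (Lung mets) of mouse mammary cancer models. The 10 genes taken up are those named Adam8, Adam9, Adam10, Adam11, Adam12, Adam15, Adam17, Adam19, Adam22 and Adam23 in the tables of group means, out of 22079 gene symbols with a mean of both tissues in at least 1 table. The genes were chosen from these same tables with their values known, and the values that prompted the choice were the Lung met and PT means of Adam23 and its relatives. All differences between Lung met and PT below are therefore a description, with no test. The study sequenced RNA of 74 samples from 6 models. Her2 (MMTV-neu) and C3Tag (C3(1)-TAg) males on the FVB background were crossed to wild-type FVB females. The PyMT-F1 models are crosses of FVB males carrying MMTV-PyMT with wild-type females of another inbred strain, here BALB/cJ, Sea/GnJ (SEAGN) and AKR/J. All tumor-bearing animals were transgene-positive female F1 mice, with no other allele or agent named. Each model comprised 6 PTs and 6 Lung mets, apart from 7 of each in C3Tag, and by the sample names the same animals gave both tissues. The study's supplement lists more C3Tag PTs than the labels do, and which of them entered the C3Tag means was not settled. The age of the animals is not given in the labels. The MMTV promoter drives the transgene in mammary epithelium among other tissues, all PTs of a PyMT-F1 animal were pooled, and, per the study's methods, the Her2 and C3Tag tumors came from animals with a single lesion that was removed by surgery before the metastases were collected. PT and Lung met of these 2 models thus differ in time of collection as well as in site, which cannot be told apart.

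ADAM proteins are membrane-anchored and carry a metalloproteinase domain beside a disintegrin domain. Members with an intact catalytic site, here Adam8, Adam9, Adam10, Adam12, Adam15, Adam17 and Adam19, cut the ectodomains of growth factors, cytokines, receptors and adhesion molecules off the cell surface. Adam11, Adam22 and Adam23 lack the residues that bind the catalytic zinc, do not cleave substrates, and act as adhesion molecules and as receptors of the LGI family of secreted proteins, mostly known from the nervous system.

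What was analysed is a normalized mean of PT and of Lung met per gene, made by the authors, so that no value of a single animal, no SD and no sequencing depth entered. A difference is given as the log2 ratio of the Lung met mean over the PT mean, and whether it exceeds the spread between animals cannot be judged from the means. The models were normalized separately, so levels are set side by side and never compared between models. The strain behind the table deposited under AKR was not settled, and its values are named as such wherever they are given. In 23 of the 36 PyMT-F1 samples the genotype label named another strain than the sample name did, and in 16 the source label named the other tissue. The groups here follow the sample names. Which animals, and under which strain and tissue, entered each PyMT-F1 table was not settled, and all PyMT-F1 ratios rest on the tables' own column names. Values for the Myc model were not analysed here. In bulk tissue, fewer cells of a type and less RNA per cell cannot be told apart.

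The tissue labels were set against marker genes. The markers of mammary tumor epithelium had similar sums in both tissues, with Lung met sums between 0.964 and 1.06 times the PT sums over the 5 tables. Single markers were less even. In Her2 and in BALB PyMT-F1 2 of 5 were higher and 3 lower in Lung met, and Krt19 was 14.0-fold and 2.35-fold higher. In C3Tag 4 were higher and 1 lower, with Krt8 at 1.56 and Epcam at 0.624 times the PT mean. Krt19 had no value in the table deposited under AKR. The share of tumor cells in each tissue was not tested. Markers of basal and myoepithelial cells with a value (3 or 4 of 4) summed in Lung met to 0.446 of the PT sum in C3Tag, 1.42 times it in Her2, 1.85 times in BALB PyMT-F1, 1.74 times in SEAGN PyMT-F1 and 1.02 times in the table deposited under AKR. Markers of lung alveolar type 2 cells with a value (3 of 6) were all higher in Lung met in every table, with median log2 ratios from 3.54 to 7.84, whereas Sftpc, Sftpb and Sftpa1, defining genes of these cells, had no value in any table. Of the 5 alveolar type 1 markers 4 or 5 were higher in Lung met per table. Of the 7 fibroblast markers, 6 were lower in Lung met in 4 of the 5 tables and 5 in C3Tag. Pdgfra, a growth factor receptor of mesenchymal cells, was the exception in every table, joined by Dcn in C3Tag.

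Adam23 had the lowest Lung met to PT ratio of the members in Her2 and C3Tag and the second lowest in SEAGN PyMT-F1. Its mean in Her2 was 136 in PT and 13.6 in Lung met, 10.0-fold lower in Lung met. In C3Tag the mean was 164 in PT and 20.0 in Lung met, an 8.20-fold difference. In SEAGN PyMT-F1 it was 52.1 in PT and 12.6 in Lung met, a 4.14-fold difference. The gene was thus lower in Lung met in each of the 3 tables that list it, with log2 ratios of -3.32, -3.04 and -2.05. Adam23 had no row in the BALB PyMT-F1 table or in the one deposited under AKR and was not analysed there. No other member combined such a low ratio in both FVB driver models, as Adam12 stood at -0.60 and 0.19 there.

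**Figure D1:**
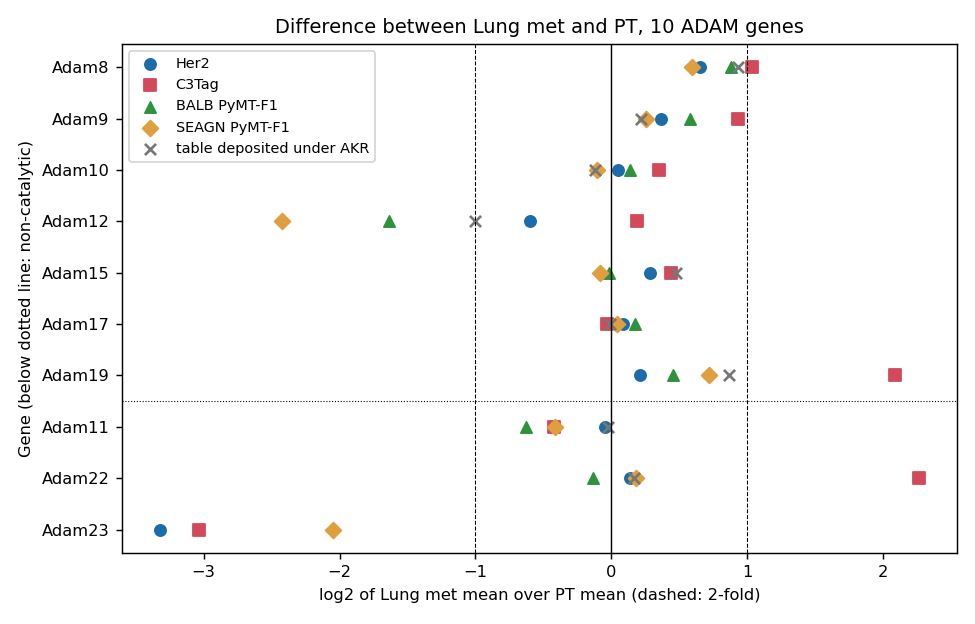
Log2 of the Lung met mean over the PT mean (x axis) for the 10 ADAM genes (rows), with 1 symbol per table and dashed lines at a 2-fold difference; no error is drawn since the tables hold means only. Adam23 lies between -3.32 and -2.05 in its 3 tables, Adam12 spreads from -2.42 to 0.19, and Adam10, Adam15 and Adam17 stay between -0.12 and 0.48.

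Against all genes of each table Adam23 stood near the lower end. In Her2 10 of 18208 genes had a lower ratio, in C3Tag 47 of 19320, and in SEAGN PyMT-F1 108 of 17351. Its level was modest: the PT mean exceeded that of 33.8% of genes in Her2, 38.3% in C3Tag and 34.1% in SEAGN PyMT-F1. In Lung met the corresponding shares were 9.03%, 12.0% and 14.8%. These low means limit how well the ratio is known, and adding 10 to both means brought the log2 ratio to -2.63 in Her2, -2.54 in C3Tag and -1.46 in SEAGN PyMT-F1.

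In GENCODE M21 on GRCm38, Adam23 (ENSMUSG00000025964) is a protein-coding gene at chr1:63445891-63596276 on the plus strand. The promoters of Adam23, Adam10 and Adam8 are shown because these members differ in opposite ways between the tissues: Adam23 was lower in Lung met, Adam10 was nearly level and Adam8 was higher. They are the 250 bases upstream of the start in RefSeq (GRCm38.p6), 5′ to 3′ on the strand of the gene, with each CG dinucleotide in capitals. The CG dinucleotide reads the same on both strands, and 92.1% of the 32851 promoter windows of this length hold at least 1, with a median of 6.
Adam23, chr1:63445641-63445890, plus strand: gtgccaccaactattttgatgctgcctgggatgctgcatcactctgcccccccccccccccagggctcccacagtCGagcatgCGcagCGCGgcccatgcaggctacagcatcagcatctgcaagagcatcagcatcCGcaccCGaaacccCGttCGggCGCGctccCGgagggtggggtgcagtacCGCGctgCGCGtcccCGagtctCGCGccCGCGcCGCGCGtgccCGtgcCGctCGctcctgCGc
Adam10, chr9:70678732-70678981, plus strand: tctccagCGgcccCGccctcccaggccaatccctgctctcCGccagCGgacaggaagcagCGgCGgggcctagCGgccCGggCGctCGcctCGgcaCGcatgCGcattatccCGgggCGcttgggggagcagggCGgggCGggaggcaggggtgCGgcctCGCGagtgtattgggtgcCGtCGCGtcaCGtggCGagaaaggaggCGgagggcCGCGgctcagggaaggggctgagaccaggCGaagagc
Adam8, chr7:139992563-139992812, minus strand: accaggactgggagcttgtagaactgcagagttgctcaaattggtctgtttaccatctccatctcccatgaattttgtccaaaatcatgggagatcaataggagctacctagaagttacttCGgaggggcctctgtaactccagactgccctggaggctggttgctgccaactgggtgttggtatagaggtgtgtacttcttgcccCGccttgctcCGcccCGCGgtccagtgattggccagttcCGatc
The Adam23 window held 27 CG dinucleotides, a number reached by 8.56% of all windows, and the Adam10 window held 29, reached by 6.78%. Adam8 held 6, as many as the median window. Of the other members in the table, Adam17 held 23, Adam15 18 and Adam22 17, while the 3 windows of Adam19 held 4 to 7. Adam23 and Adam10 were thus alike in CG number. No methylation was measured here, and the part of CG number in the ratios was not tested.

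The 5 genes whose ratios over the 3 tables were nearest to those of Adam23, by Euclidean distance on the log2 scale among 12240 genes, were Neb, Fbn2, Serpinf1, Thy1 and Thbs2. Neb, which encodes the giant muscle protein nebulin, was nearest, at a distance of 0.87, with log2 ratios of -2.46 in Her2, -3.05 in C3Tag and -1.89 in SEAGN PyMT-F1. Fbn2, a fibrillin of extracellular microfibrils, followed at 1.64 with -4.71, -2.18 and -1.86. Serpinf1 (a secreted serpin), Thy1 (a surface glycoprotein of fibroblasts and other cells) and Thbs2 (a matricellular thrombospondin) lay at 1.72 to 1.90. All 5 were lower in Lung met in the 3 tables, and Thy1 is also 1 of the 7 fibroblast markers. Likeness over 3 tables is a description of these means only.

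Other genes of skeletal muscle, looked up after Neb was seen, were lower in Lung met in 4 of the 5 tables. Those with a value, 2 to 4 of 7 genes in these tables, summed to 353 in PT and 31.1 in Lung met in Her2, 5605 and 464 in C3Tag, 4544 and 87.9 in BALB PyMT-F1, and 931 and 93.8 in SEAGN PyMT-F1. In the table deposited under AKR 4 of the 5 with a value were higher in Lung met, with sums of 69.4 and 84.2. Fibroblast markers summed to 11300 in PT and 5144 in Lung met in Her2, to 26670 and 23420 in C3Tag, and to 12250 and 2361 in SEAGN PyMT-F1. In C3Tag the fibroblast sum, made up mostly of Col1a1 and Col1a2, had a Lung met to PT ratio of 0.878, and Adam23 had 0.122. Of the 7 fibroblast markers 5 were lower and 2 higher in Lung met there, with a median log2 ratio of -0.62. Thy1 stood at -1.72 and Lum at -1.63. Of the neuronal markers, Snap25 had no value in any table and 0 to 3 of 4 had one per table. Of the Schwann cell markers 3 or 4 of 4 had a value, with median log2 ratios from -0.64 to 0.14. The part of muscle, fibroblasts or nerve in the Adam23 result was not tested.

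Adam22, a receptor of LGI1 at synapses, did not share the pattern of Adam23. Its mean was 27.0 in PT and 29.7 in Lung met in Her2, 30.8 and 28.1 in BALB PyMT-F1, 31.8 and 36.1 in SEAGN PyMT-F1, and 22.8 and 25.6 in the table deposited under AKR. C3Tag stood apart, with 90.9 in PT and 438 in Lung met, 4.82-fold higher in Lung met. There, 299 of 19320 genes had a higher ratio. Elsewhere the log2 ratio of Adam22 stayed between -0.13 and 0.18.

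Adam11, a non-catalytic member known mostly from neurons, was lower in Lung met in all 5 tables by small amounts. The means of PT and Lung met were 44.4 and 43.0 in Her2, 70.0 and 52.1 in C3Tag, 23.8 and 15.4 in BALB PyMT-F1, 31.7 and 23.9 in SEAGN PyMT-F1, and 58.9 and 58.0 in the table deposited under AKR. The log2 ratio ranged from -0.63 to -0.02. No table put Adam11 past a 2-fold difference.

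**Figure D2:**
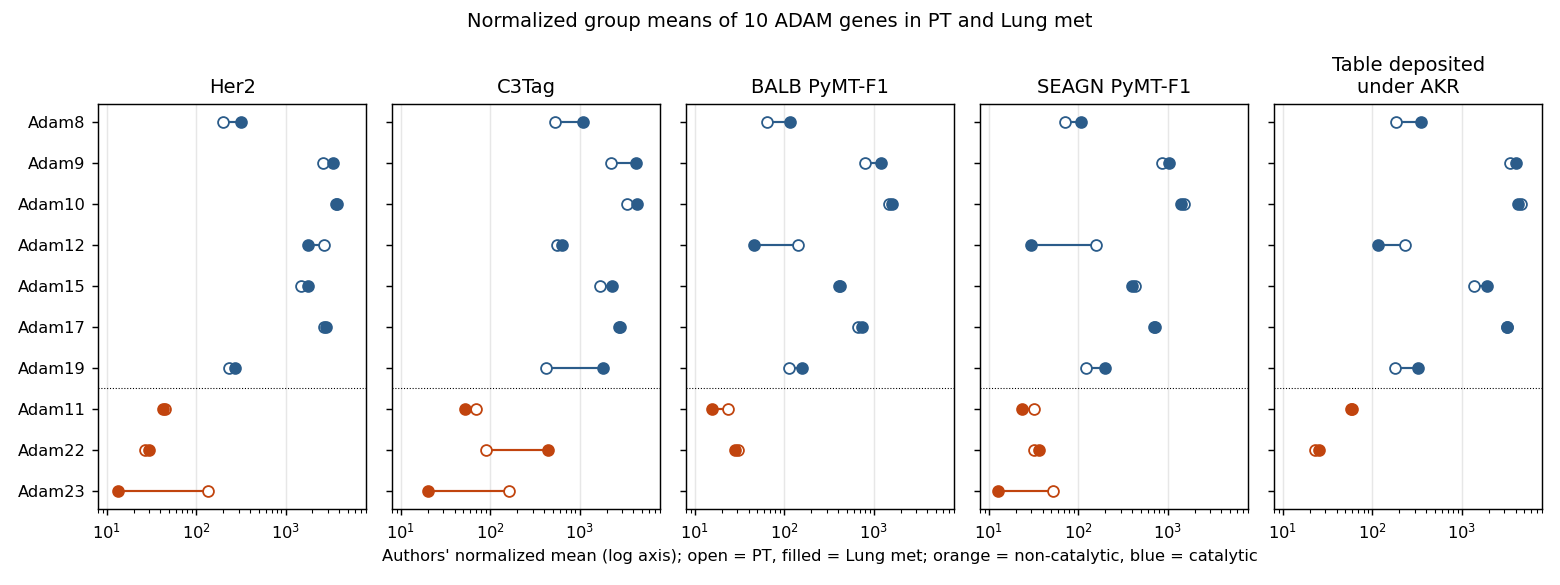
Authors' normalized means (log x axis) of the 10 ADAM genes (rows) in PT (open circles) and Lung met (filled circles), with 1 panel per table, catalytic members in blue and non-catalytic members in orange. The longest orange segment in Her2, C3Tag and SEAGN PyMT-F1 is that of Adam23, and levels may be compared only within a panel.

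Among the catalytic members, Adam12 had the widest range of ratios between tables. Adam12 encodes meltrin alpha, a sheddase of mesenchymal and muscle precursor cells whose substrates include heparin-binding EGF. In SEAGN PyMT-F1 its mean was 158 in PT and 29.6 in Lung met, 5.36-fold lower in Lung met. In BALB PyMT-F1 it was 144 in PT and 46.3 in Lung met, 3.12-fold lower. The table deposited under AKR gave 231 and 115, a 2.00-fold difference that lies at the 2-fold limit itself. In Her2 the means were 2719 in PT and 1798 in Lung met, a 1.51-fold difference. C3Tag alone had a slightly higher mean in Lung met, 634 against 557 in PT.

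The summed fibroblast markers, a sum made up mostly of Col1a1 and Col1a2, followed the same order of tables as Adam12, but their median log2 ratio did not. The ratio of the Lung met over the PT sum was 0.193 in SEAGN PyMT-F1, 0.316 in BALB PyMT-F1, 0.391 in the table deposited under AKR, 0.455 in Her2 and 0.878 in C3Tag. The corresponding ratios of Adam12 were 0.187, 0.321, 0.500, 0.661 and 1.14. The median log2 ratio of the 7 markers was -2.42 in SEAGN PyMT-F1, -1.74 in BALB PyMT-F1, -1.65 in Her2, -1.41 in the table deposited under AKR and -0.62 in C3Tag, which puts Her2 below the table deposited under AKR. The 5 tables are too few for a correlation, and the part of fibroblast content in the Adam12 result was not tested. Adam23 did not follow the order of the sums, as its ratio was 0.100 in Her2, 0.122 in C3Tag and 0.241 in SEAGN PyMT-F1.

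Adam8 and Adam19 were higher in Lung met in all 5 tables. Adam8, a sheddase of neutrophils, macrophages and other leukocytes, had PT and Lung met means of 200.0 and 315 in Her2, 530.0 and 1086 in C3Tag, 63.9 and 118 in BALB PyMT-F1, 71.5 and 108 in SEAGN PyMT-F1, and 184 and 351 in the table deposited under AKR. The ratio was narrow across tables, from 1.51-fold to 2.05-fold higher, and only C3Tag passed 2-fold. Adam19, meltrin beta, which processes neuregulin and is needed for heart development, had means of 236 and 274 in Her2, 426 and 1812 in C3Tag, 115 and 157 in BALB PyMT-F1, 122 and 202 in SEAGN PyMT-F1, and 180 and 328 in the table deposited under AKR. Its ratio ran from 1.16-fold in Her2 to 4.26-fold in C3Tag. Both genes thus had their highest ratio in C3Tag, as did Adam9, Adam10, Adam12 and Adam22. Of all genes in C3Tag, 7.42% were at least 2-fold higher in Lung met. The means of all genes in C3Tag summed to 40890000 in PT and 23450000 in Lung met, with medians of 354 and 388. The alveolar type 2 markers with a value also had their highest ratio there, with sums of 161 in PT and 29500 in Lung met, and their part in these results was not tested.

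Neutrophil markers were also higher in Lung met, whereas macrophage and T cell markers were mixed. The 3 neutrophil markers with a value were higher in Lung met in every table, and their sum in Lung met was 2.49 times that in PT in Her2, 6.07 times in C3Tag, 2.73 times in BALB PyMT-F1, 2.99 times in SEAGN PyMT-F1 and 12.4 times in the table deposited under AKR. Ly6g, a defining marker, had no value in any table. The macrophage markers summed to 1.51 to 4.02 times the PT sum, mostly through Lyz2, also a gene of alveolar type 2 cells. Cd68 was higher in Lung met in every table, with log2 ratios from 0.07 in Her2 to 1.16 in the table deposited under AKR. Adgre1 had log2 ratios between -0.32 and 0.22, and Csf1r was lower in Lung met in 4 of 5 tables, between -0.40 and 0.26. The T cell markers with a value (2 or 3 of 3) summed to 0.869 of the PT sum in C3Tag. In the other tables they summed to 1.08 to 1.40 times it. Cd8a was lower in Lung met in each of the 4 tables that gave it, by log2 ratios from -0.84 to -0.44. Cd3e was higher in each table that gave it, by log2 ratios from 0.09 to 1.37, and Cd4 ranged from -0.18 to 0.61. Endothelial markers summed to 1.60 to 3.58 times the PT sum. Adam8, like the neutrophil sum, was higher in Lung met in every table. The Adam8 ratio was 2.05 in C3Tag, 1.91 in the table deposited under AKR, 1.84 in BALB PyMT-F1, 1.57 in Her2 and 1.51 in SEAGN PyMT-F1. The neutrophil sum had another order of tables, highest in the table deposited under AKR and lowest in Her2. The endothelial ratio was also highest in the table deposited under AKR (3.58), followed by C3Tag (2.95). The part of these cells in the Adam8 and Adam19 results was not tested.

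**Figure D3:**
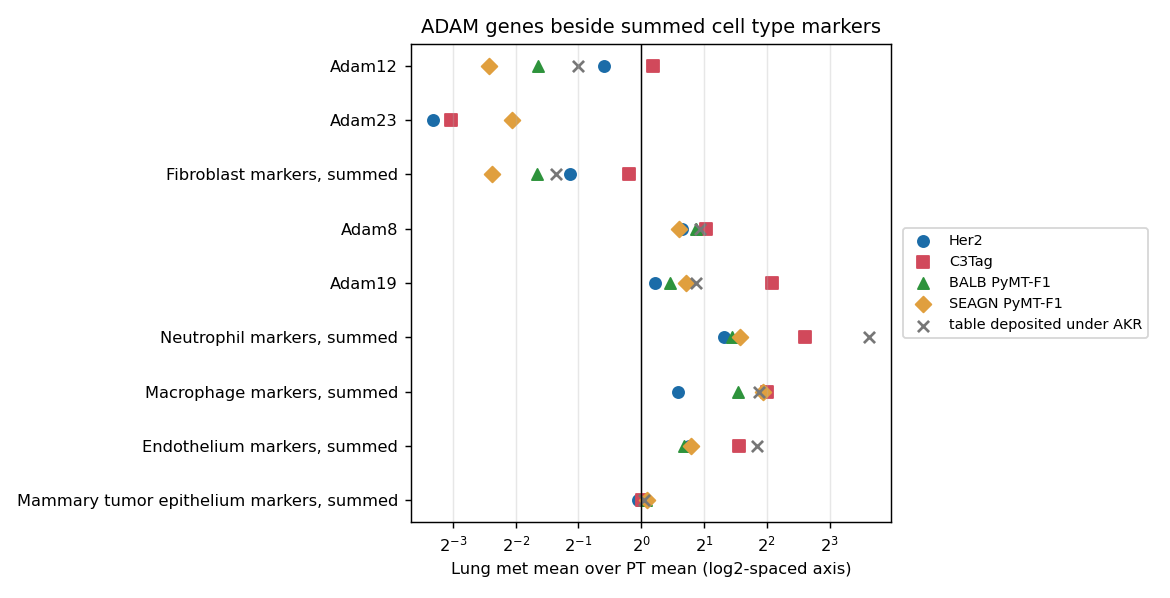
Lung met mean over PT mean (x axis, log2 spacing) of Adam12, Adam23, Adam8 and Adam19 and of the summed markers of 5 cell types, with 1 symbol per table as in the legend. Adam12 and the fibroblast sum, mostly of Col1a1 and Col1a2, run from 0.187 and 0.193 in SEAGN PyMT-F1 to 1.14 and 0.878 in C3Tag, in an order of tables that the median of the markers does not share, and the epithelial sum stays close to 1.

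Adam10 and Adam17, the main sheddases of Notch and of tumor necrosis factor, differed little between the tissues. Adam10 means in PT and Lung met were 3618 and 3751 in Her2, 3415 and 4361 in C3Tag, 1476 and 1624 in BALB PyMT-F1, 1506 and 1398 in SEAGN PyMT-F1, and 4665 and 4301 in the table deposited under AKR. The Lung met mean was 0.922 to 1.28 times the PT mean. Adam17 means were 2656 and 2825 in Her2, 2842 and 2780 in C3Tag, 663 and 747 in BALB PyMT-F1, 712 and 731 in SEAGN PyMT-F1, and 3252 and 3229 in the table deposited under AKR. With ratios from 0.978 to 1.13, Adam17 had the narrowest range of the 10 members. Part of its locus at chr12:21323509-21373632 overlaps Iah1 on the other strand, and whether the counting used strand is not given in the sources used here.

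Adam9, a widely expressed sheddase, was higher in Lung met in all 5 tables, and Adam15, an adhesive sheddase of epithelium and endothelium, in 3 of 5. Adam9 means were 2628 in PT and 3378 in Lung met in Her2, 2245 and 4293 in C3Tag, 807 and 1205 in BALB PyMT-F1, 858 and 1023 in SEAGN PyMT-F1, and 3472 and 4047 in the table deposited under AKR. Its ratio ran from 1.17 to 1.91, with the upper end in C3Tag. Adam15 had 1479 and 1798 in Her2, 1711 and 2317 in C3Tag, 419 and 415 in BALB PyMT-F1, 428 and 404 in SEAGN PyMT-F1, and 1367 and 1900 in the table deposited under AKR. Its ratio was 1.22 to 1.39 in Her2, C3Tag and the table deposited under AKR, and 0.945 to 0.991 in the other two.

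Taking catalytic and non-catalytic members apart, the 7 catalytic members had a median log2 ratio of 0.21 in Her2, 0.44 in C3Tag, 0.17 in BALB PyMT-F1, 0.04 in SEAGN PyMT-F1 and 0.22 in the table deposited under AKR. The median over all genes was between -0.001 and 0.03 in these tables. The 3 non-catalytic members had medians of -0.05 in Her2, -0.42 in C3Tag and -0.41 in SEAGN PyMT-F1, and the 2 with values had -0.38 in BALB PyMT-F1 and 0.07 in the table deposited under AKR. The non-catalytic median was thus lower than the catalytic one in all 5 tables. In each of the tables with all 3, the middle member was Adam11, so the median does not carry the value of Adam23.

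Counts past a 2-fold difference were read against the share of all genes past it. In Her2 0 of 10 members were at least 2-fold higher in Lung met, where 2.38% of all genes were, and 1 (Adam23) was at least 2-fold lower, where 1.43% were. In C3Tag 3 of 10 were higher (Adam8, Adam19 and Adam22), where 7.42% of genes were, and 1 (Adam23) was lower, where 1.70% were. In BALB PyMT-F1 0 of 9 were higher and 1 (Adam12) was lower, where 2.26% and 2.40% of genes were. In SEAGN PyMT-F1 0 of 10 were higher and 2 (Adam12 and Adam23) were lower, where 2.86% and 3.22% of genes were. In the table deposited under AKR 0 of 9 were higher and 1 (Adam12) was lower, where 7.31% and 1.73% of genes were. Since the choice of the genes used this same difference, nothing is read from these counts.

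**Figure D4:**
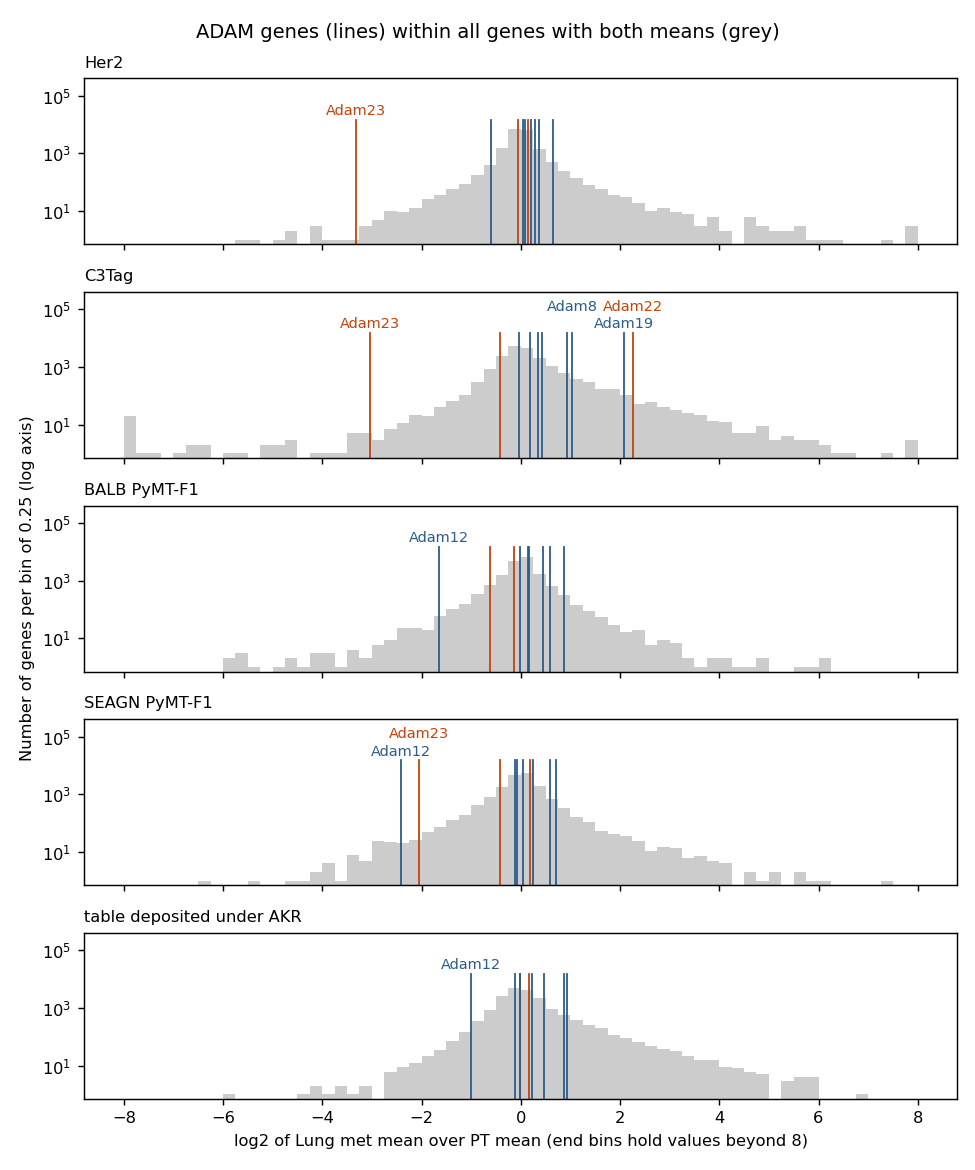
Number of genes (log y axis) per bin of the log2 ratio of the Lung met over the PT mean (x axis), with 1 panel per table, all genes in grey and the ADAM genes as lines (catalytic blue, non-catalytic orange), named where past a 2-fold difference. Most lines fall in the dense centre, and Adam23 lies in the lower tail of Her2, C3Tag and SEAGN PyMT-F1.

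Within a table the members could be ordered by level once each mean was divided by the merged exon length of the gene in GENCODE M21. Adam9 and Adam10 held the first and second place in both tissues of every table, and Adam17 the third. In PT, Adam10 made up 31.5% of the summed level per kb of the 10 members in Her2 and 32.0% in C3Tag, and Adam9 27.3% and 25.1%. In Lung met of Her2 and C3Tag, Adam9 stood above Adam10, with 32.1% against 29.8% and 31.7% against 27.0%, and likewise in the table deposited under AKR, with 35.6% against 31.7%. Adam10 kept the first place in Lung met of BALB PyMT-F1, with 38.8% against 34.4%, and of SEAGN PyMT-F1, with 37.3% against 32.6%. The non-catalytic members together made up 0.740% of the summed level per kb in PT and 0.407% in Lung met in Her2. The shares in PT and Lung met were 1.28% and 1.24% in C3Tag and 1.44% and 0.973% in SEAGN PyMT-F1. Without a value of Adam23, the shares were 0.899% and 0.549% in BALB PyMT-F1 and 0.466% and 0.435% in the table deposited under AKR. Adam23 took the ninth place in PT and the tenth in Lung met in each of its 3 tables. With no SD, which neighbours in this order differ beyond their spread could not be judged, and merged exons of 17.9 kb for Adam23 against 4.12 kb for Adam9 weigh on it.

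The regulators of ADAM activity were followed from lists of known genes, and the means and SDs given for single genes of these lists include the table deposited under AKR. Tetraspanins of the TspanC8 group escort Adam10 to the cell surface, and 5 of 6 had values, with none past 2-fold in any table and medians from -0.05 to 0.27. By mean over the tables Tspan17 had the highest log2 ratio (0.28 ± 0.21, SD over 5 tables) and Tspan5 the lowest (-0.15 ± 0.64). Of the genes that bring Adam17 to the surface (the inactive rhomboids Rhbdf1 and Rhbdf2, and Frmd8), none passed 2-fold, with Rhbdf2 at 0.20 ± 0.29 and Rhbdf1 at -0.18 ± 0.21. Of the 4 proprotein convertases, which remove the prodomain of ADAM proteins, 1 was at least 2-fold higher in C3Tag, where 7.42% of all genes were, and none passed 2-fold in the other tables. Furin had the highest mean log2 ratio, 0.23 ± 0.43, and Pcsk5 the lowest, -0.17 ± 0.29.

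The natural inhibitors Timp1 to Timp4 and Reck had median log2 ratios of either sign, and the difference between models was not tested. All 5 were higher in Lung met in C3Tag, with a median of 0.86, and 2 of them were at least 2-fold higher, where 7.42% of all genes were. In SEAGN PyMT-F1 4 of 5 were lower, with a median of -1.24, and 3 of them were at least 2-fold lower, where 3.22% of all genes were. Timp4 is counted past 2-fold in both models at low means. These were 13.1 in PT and 33.55 in Lung met in C3Tag, and 18.0 and 6.39 in SEAGN PyMT-F1. In the other 3 tables none passed 2-fold, with medians from -0.04 to 0.29. Timp3, the tissue inhibitor that blocks Adam17 and Adam10, had the highest mean log2 ratio (0.54 ± 0.38) and was higher in Lung met in every table, from 0.10 in BALB PyMT-F1 to 0.92 in the table deposited under AKR. Timp2 had the lowest mean (-0.22 ± 0.82), with -1.24 in SEAGN PyMT-F1 and 1.04 in C3Tag.

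Substrates were counted in the same way. Of the Adam17 substrates with values, 2 of 10 were at least 2-fold higher in Her2, 6 of 12 in C3Tag, 2 of 10 in BALB PyMT-F1, 2 of 10 in SEAGN PyMT-F1 and 4 of 11 in the table deposited under AKR. The shares of all genes were 2.38%, 7.42%, 2.26%, 2.86% and 7.31%. In SEAGN PyMT-F1 1 was at least 2-fold lower, where 3.22% of genes were. Icam1, an adhesion receptor for leukocytes, had the highest mean log2 ratio (2.16 ± 0.58) and was higher in all 5 tables, with PT and Lung met means of 210 and 855 in Her2 and 566 and 3045 in C3Tag. Tnf, the substrate that gave Adam17 its first name, had the lowest (0.14 ± 0.20). Of the 12 Adam10 substrates, 1 was at least 2-fold higher in C3Tag and 1 in the table deposited under AKR. The shares of all genes higher there were 7.42% and 7.31%. At least 2-fold lower were 1 in BALB PyMT-F1, 2 in SEAGN PyMT-F1 and 1 in the table deposited under AKR. The shares of all genes lower there were 2.40%, 3.22% and 1.73%. All other counts of Adam10 substrates past 2-fold were 0. Egf, the epidermal growth factor, was lower in Lung met in all 5 tables (mean log2 ratio -1.13 ± 0.69), and Cd44, the hyaluronan receptor, was higher in all 5 (0.52 ± 0.27).

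Among the partners of the non-catalytic members, Lgi1, Kcna1 and Kcna2 had no value in any table, so the best-known ligand of Adam22 and Adam23 was not analysed here. The eligible genes with the highest and lowest mean log2 ratio were Lgi2 (0.24 ± 1.26) and Dlg4 (-0.38 ± 1.13), both with ratios of either sign. Lgi2, like Adam22, was higher in Lung met in C3Tag, with a mean of 58.0 in PT and 291 in Lung met. In Her2 the log2 ratio was -1.05 for Lgi2 and 0.14 for Adam22. Lgi3, named after its values were seen, was low in PT and higher in Lung met in the 3 tables that gave a value. Its mean was 4.40 in PT and 199.6 in Lung met for Her2, 34.3 in PT and 517 in Lung met for C3Tag, and 21.6 in PT and 941 in Lung met for the table deposited under AKR. Alveolar type 2 markers with a value were also higher in Lung met in these 3 tables. Their median log2 ratios were 3.68 in Her2, 7.84 in C3Tag and 4.62 in the table deposited under AKR. The part of lung cells in the Lgi3 result was not tested. The integrin genes Itgav and Itgb3, which encode a receptor for Adam23, stayed within log2 ratios of -0.31 and 0.37. Of 24 further ADAM genes, most of them known from testis, 16 had no value in any table. The 2 measurable in all tables, Adam1a and Adam4, had mean log2 ratios of 0.01 ± 0.20 and -0.07 ± 0.17. Adam33, named after its values were seen, was lower in Lung met in each table that gave it, by log2 ratios from -0.79 to -0.53. Adam1b, at low means, was higher in BALB PyMT-F1 (1.05) and SEAGN PyMT-F1 (0.68) and had no value elsewhere.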

How the data were processed

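RNA-seq was performed on PTs and Lung mets of 6 models. Per the study's methods, alignment, gene counting and normalization were done by the authors in Partek Flow, followed by DESeq2 for the PyMT-F1 crosses and by Partek's GSA for the driver models. Different passages of the methods give the build as mm9 and as mm10, whereas the submitters' processing notes name STAR 2.7.8a and mm39. The labels name a stranded total RNA kit and the methods an mRNA kit. The values used are the normalized group means that the authors deposited, treated as a signal with no SD or n. Genes carry BALB/cJ identifiers in the BALB and SEAGN tables and were joined by symbol. Sequencing depth is unknown, so no interval was computed.

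The deposited columns of the authors' own comparisons (p-value, FDR, ratio and fold change) were not used. The Myc table was left out, since what was read from it held p-values and FDR alone. The table deposited under AKR was not taken as AKR data, and enters the means of list genes over 5 tables.

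From the means, log2 ratios (Lung met over PT) were computed without a pseudocount, with Python 3.11.15, numpy 2.4.6 and pandas 2.3.3. Known fold changes put on the PT means without noise were recovered, which checks the arithmetic alone. A gene counted as past a difference from 2-fold on. The named genes are the 10 members, and in each list the genes with the highest and lowest mean log2 ratio among those with a mean of at least 10 in PT or Lung met of all 5 tables. The 5 genes nearest to Adam23 had such a mean in its 3 tables. The members and lists were chosen with earlier results of these data known, and the muscle, adipocyte and milk protein lists after the data were seen. Alternatives were pseudocounts of 1 and 10, centring on the median of all genes, a mean of at least 10, and folds of 1.5 and 3. Figures were drawn with matplotlib 3.10.9. Gene positions and exon lengths are from GENCODE M21, and promoters from RefSeq, which held 7 of the 10 members.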

Additional observations from a re-analysis of the deposited data

How the results depend on the processing

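With 10 added to both means, the log2 ratio of Adam23 was -2.63 in Her2, -2.54 in C3Tag and -1.46 in SEAGN PyMT-F1, and the median of the non-catalytic members was -0.26 in BALB PyMT-F1 and -0.30 in SEAGN PyMT-F1, all in the same direction as without it. In the table deposited under AKR, where Adam12 lies at the 2-fold limit, the number of members at least 2-fold lower in Lung met was 0 in place of 1 with a pseudocount of 1, with a pseudocount of 10 and at a 3-fold limit. At a limit of 1.5-fold the number of higher members was 1 in Her2, 1 in BALB PyMT-F1, 2 in SEAGN PyMT-F1 and 2 in the table deposited under AKR, in place of 0 in each, and the number of lower members was 2 in Her2 and 2 in BALB PyMT-F1, in place of 1. Centring on the median of all genes and keeping only genes with a mean of at least 10 moved none of the 23 ratios, medians and counts by over 0.1 on the log2 scale or 1.5 times. Centring takes the same amount off each gene of a table and so cannot alter which genes are nearest to Adam23. Without the table deposited under AKR, an alternative chosen after seeing the data, the mean log2 ratio was 0.35 for Furin, 1.94 for Icam1, -0.91 for Egf and -0.76 for Dlg4, the other 12 named list genes moved by less than 0.1, none of the 16 means took the other sign, and Cd44 was no longer the highest of its list.

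No paired analysis was possible because the tables hold group means and no value of an animal, although both tissues came from the same animals. Leaving out a replicate was not possible for the same reason, and neither the depth nor the spread behind a mean is known. Of the lists added after the data were seen, the 5 adipocyte genes had no value in any table, and the milk protein genes with a value summed in Lung met to 0.815 to 1.62 times their PT sum. Of the B cell and airway markers, 0 or 1 of 3 had a value per table: Cd79a in C3Tag, with a log2 ratio of 1.36, and Foxj1 in 4 tables, between -0.42 and 0.94.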
